A study of Mus musculus with 36 samples.

Results

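Subcutaneous fat of the groin (inguinal white adipose tissue, iWAT) from 6 time-restricted mice was compared with iWAT of 6 mice fed ad libitum, which are 12 of the 36 samples of the study. The samples were chosen by their labelled tissue and diet. All mice were C57BL/6J. The time-restricted group (labelled TR.al, here TR) was restricted in feeding time and not in calories, as the series names it, and the ad libitum group (AL) was not restricted, each for 16 weeks. The daily feeding window is not stated in the labels. A calorie-restricted group (CR, 6 iWAT samples) enters below only as a further comparison. The question behind the series is how far fasting each day, at an unchanged calorie intake, gives in RNA what calorie restriction gives. The age and sex of the mice, and the time of day and the interval since the last meal at which tissue was taken, are not stated in the labels. The diets therefore cannot be told apart from the time since feeding.

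White adipocytes store triglyceride. They can make its fatty acids from glucose by glycolysis, export of citrate from mitochondria and the enzymes of fatty acid synthesis, a route that insulin and the transcription factors SREBP1 and ChREBP stimulate after feeding. They release the fatty acids again by lipolysis during fasting. Inguinal fat of mice can also gain beige adipocytes, which are rich in mitochondria and carry the uncoupling protein UCP1. Around the adipocytes lie progenitor cells and fibroblasts that make the extracellular matrix, blood vessels, nerves and immune cells.

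The values are the authors' deposited comparisons of groups, made with edgeR generalized linear models. They give for each gene a log2 fold change (TR minus AL, positive where TR was higher), a log2 mean CPM (abundance over the libraries of the comparison) and a likelihood-ratio test with an adjusted p (FDR). Values per mouse, their spread and the depth per library are not in these tables, so whether the groups overlap was not analysed here. An approximate standard error (SE) was taken as the absolute log2 fold change divided by the root of its test statistic, with a median of 0.366 over all genes. The verbs rose, fell and changed are kept for genes with an adjusted p under 0.05 in the authors' tables. Where a relation to transcript length was removed (described below), they refer instead to an adjusted p computed here from the approximate SE. The sample names carry an animal number, with no litter, cage or batch stated. The p-values rest on the spread between libraries as the authors' model estimated it, and which libraries entered that model is not stated beyond the label.

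Transcripts of hepatocytes and of skeletal muscle fibres were present in the iWAT libraries. Muscle markers fell in part in TR, and hepatocyte markers had higher values in TR with wide errors. All 25 hepatocyte markers were listed, between 4.59 and 12.2 in log2 mean CPM. Alb, which encodes serum albumin, stood at 11.5 and so near the adipocyte hormone gene Adipoq, also at 11.5. The 25 markers had a median log2 fold change of 2.09 in TR minus AL, all above 0, but 1 of them rose. In the authors' deposited table that one was Cyp2e1, which adipocytes also express, with 1.25 (adjusted p = 9.0e-04). Alb had 2.92 with an approximate SE of 1.13 (adjusted p = 0.078). Of 37 listed muscle markers, 17 fell and 1 rose, with a median of -2.84, and the one that rose was the slow and cardiac troponin gene Tnnc1. Myh1, a fast myosin heavy chain, stood at -6.06 in the authors' deposited table (adjusted p = 6.3e-05). A further set of 311 liver-enriched genes, whose log2 mean CPM in the liver libraries was at least 5 above that in iWAT, had a median of 1.80. By the authors' edgeR test 0 of them passed, with 10 at an unadjusted p under 0.05. Their median approximate SE was 1.52, against 0.361 over the genes outside all 3 sets. These 3 sets together hold 357 genes and 19 of the genes that changed, and fat, stromal and immune genes are described apart from them.

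Adipocyte identity itself was measured by 10 markers with a log2 mean CPM of 5.72 to 13.7. Of these 2 rose and 2 fell, and their median was 0.10. Adipoq had 0.09 with an approximate SE of 0.27, Pparg, the master regulator of adipocyte formation, 0.07 with 0.31, and the lipid droplet coat gene Plin1 0.11 with 0.30, in the authors' deposited table. The mammary gland lies within this depot, but of 17 mammary epithelial markers 7 were listed, at a log2 mean CPM of at most 1.86, and the authors' edgeR test called 0 of them, with 0 at an unadjusted p under 0.05. In bulk tissue, fewer cells of a type and less RNA per cell cannot be told apart, here and below.

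**Figure D1:**
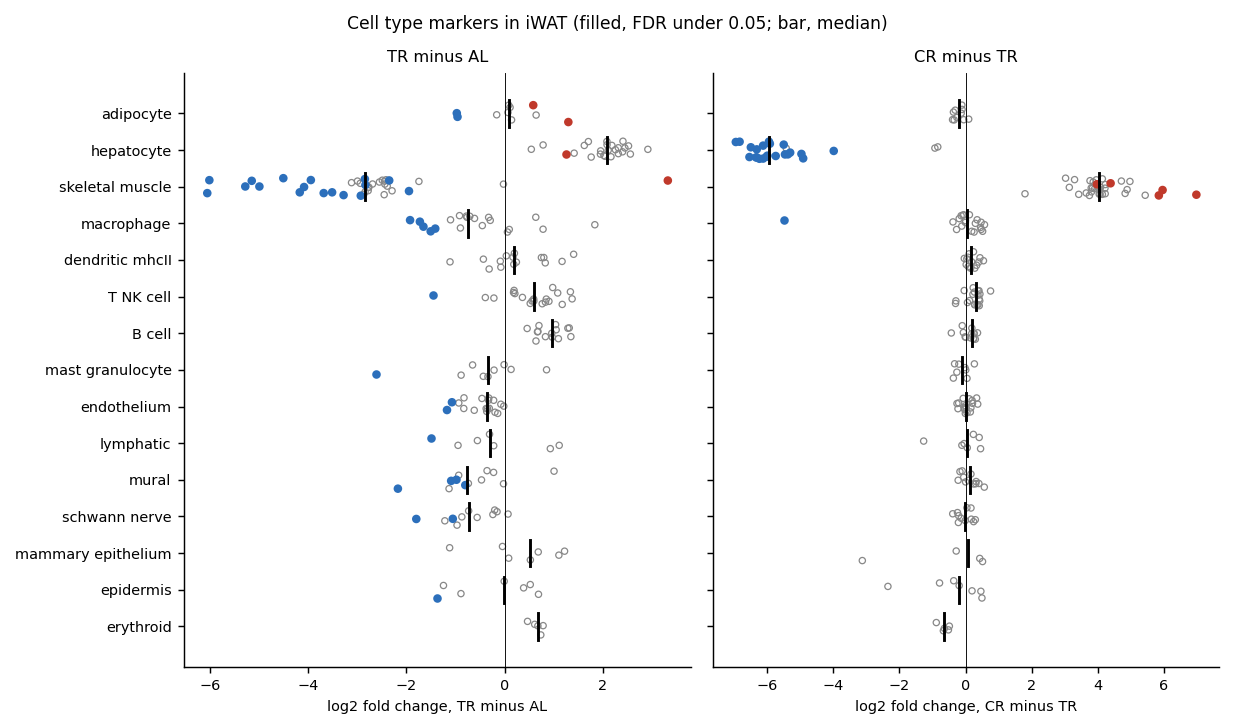
Log2 fold changes of the members of 15 cell type marker lists in iWAT, TR minus AL on the left and CR minus TR on the right. Each point is a gene, filled where the adjusted p was under 0.05, and the bar is the median of the list. Hepatocyte markers had medians of 2.09 and -5.95 and muscle markers -2.84 and 4.04, while the adipocyte medians were 0.10 and -0.20.

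Across the tissue, 1535 of 15356 genes changed (10%), 731 higher in TR (4.76%) and 804 lower (5.24%), against a median log2 fold change of -0.04 over all genes. Outside the hepatocyte, muscle and liver-enriched sets 1516 genes changed, 729 higher and 787 lower. Predicted genes and genes under a log2 mean CPM of 2 aside, the highest fold belonged to Pdzk1ip1, which encodes a small membrane protein that binds PDZ domains (GRCm38 chromosome 4 from 115088708 to 115093899). It had a log2 fold change of 6.13 with an approximate SE of 0.88 (adjusted p = 1.0e-09) in the authors' deposited table, at a log2 mean CPM of 2.81. Elovl3 (4.37) and Elovl6 (4.27), both fatty acid elongases, and Cidea (4.05), a lipid droplet fusion gene of brown and beige fat, were also among the 10 highest. Others of the 10 were Gramd2 (4.25), the ferroxidase-like Hephl1 (4.24), Tmem79 (4.21), the immunoglobulin heavy chain gene Ighg2c (4.14, approximate SE 1.21) and Ttc25 (3.70), in the authors' deposited table. Ighg2c can share reads with the other immunoglobulin constant genes.

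At the other end stood Zim1, with -5.72 (approximate SE 0.68, adjusted p = 3.6e-14), Slc5a7, the choline transporter of cholinergic nerves, with -5.29 (approximate SE 1.07), and Peg3 with -5.19 (approximate SE 0.40) in the authors' deposited table. Zim1 and Peg3 are imprinted neighbours on chromosome 7, from 6671269 to 6696450 and from 6703892 to 6730431. Mest, another imprinted gene whose level in fat follows adipose expansion, had -4.33 (approximate SE 0.62). The remaining 6 of the 10 lowest (Trim63, Ckmt2, Ppp1r3a, Hspb7, Nrap and Fbxo40) are known from striated muscle and were not on the muscle list used. With 54 further muscle genes added to the list after the values were seen, of which 23 fell and 1 rose, those 6 gave way to Folh1 (-3.83), Ccn5 (-3.29), Mmp12 (-3.24), Vgll3 (-3.14), Synpo2 (-3.11) and Adamts5 (-3.05). Ccn5 encodes a secreted matricellular protein of adipose progenitors, Mmp12 a macrophage elastase, Vgll3 a transcription cofactor and Adamts5 a proteoglycan-cleaving protease. The part of muscle cells in the values of these 6, Synpo2 among them, was not tested.

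**Figure D2:**
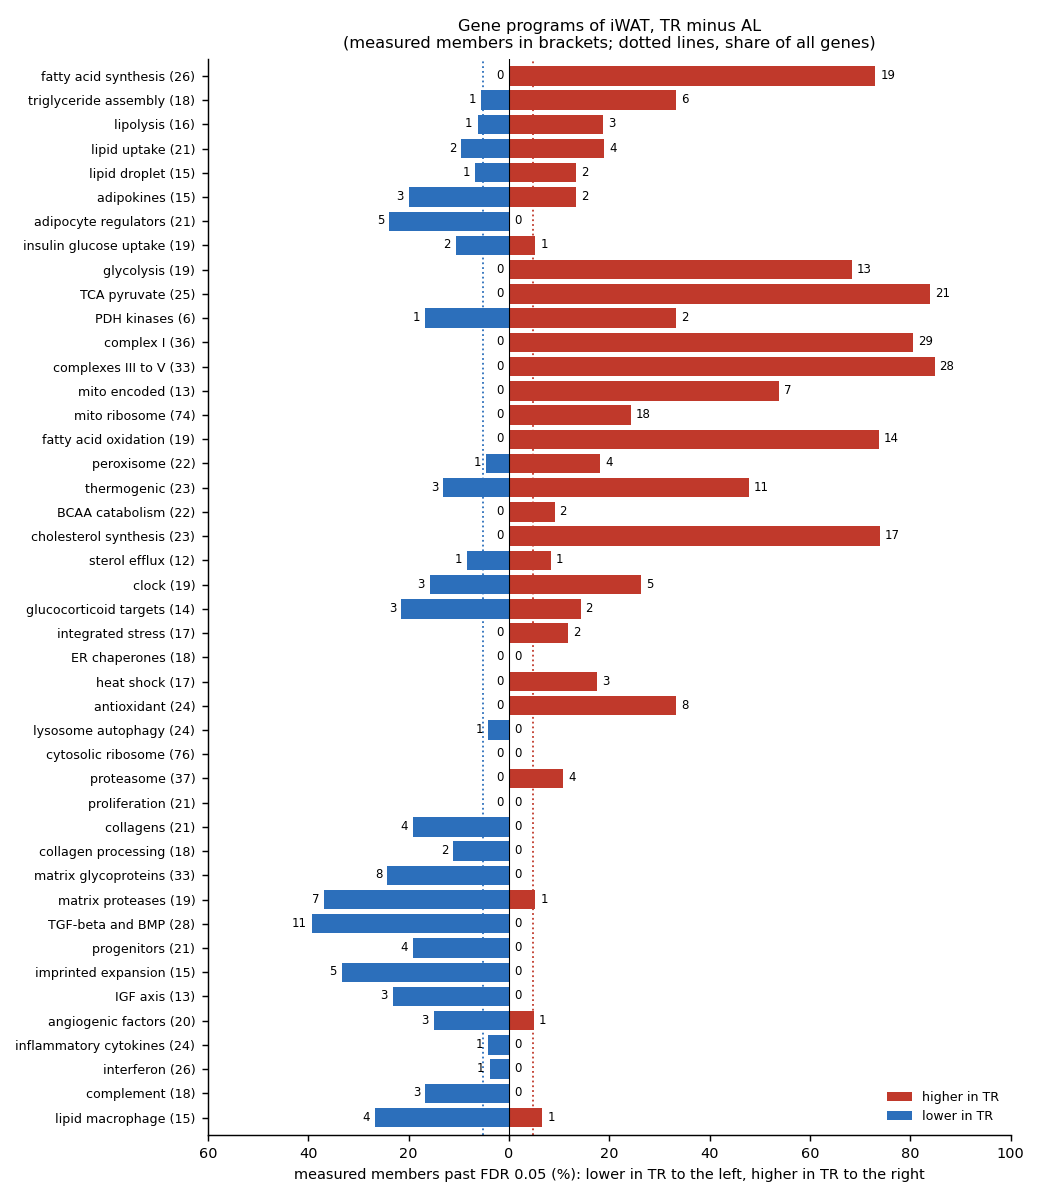
Share of the measured members of 44 gene lists that passed the adjusted p of 0.05, higher in TR to the right and lower in TR to the left, with the number of genes at the end of each bar. The dotted lines mark the shares over all genes (4.76% higher and 5.24% lower), and the bars reach furthest to the right for complexes III to V, the TCA cycle, complex I, cholesterol synthesis, fatty acid oxidation and fatty acid synthesis.

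Fatty acid synthesis had most of its members higher in TR. Of 26 measured members 19 rose and 0 fell, and the median log2 fold change was 1.90, where 4.76% of all genes rose. Acss2, which makes acetyl-CoA from acetate, had a log2 fold change of 3.70 with an approximate SE of 0.32, a 13.0-fold difference, in the authors' deposited table. Elovl6, which extends palmitate (chromosome 3 from 129532355 to 129638495), had 4.27 with an approximate SE of 0.45, or 19.3-fold. Slc25a1, the mitochondrial citrate carrier that supplies the pathway, had 3.43 (approximate SE 0.34), and Acly, which splits that citrate, had 2.74 (approximate SE 0.38). NADPH for the synthesis comes from the malic enzyme and the pentose phosphate pathway. Me1, the cytosolic malic enzyme, rose by 2.71 (approximate SE 0.29) and Tkt, a transketolase, by 2.94 (approximate SE 0.34) in the authors' deposited table. Fasn, the fatty acid synthase, rose by 2.71 (approximate SE 0.43, adjusted p = 5.1e-08), and the desaturase Scd1, the most abundant member with a log2 mean CPM of 15.3, by 1.71 (approximate SE 0.19). The 2 transcription factors of the list did not pass: Srebf1 (SREBP1) had 0.88 with an approximate SE of 0.38 (adjusted p = 0.13) and Mlxipl (ChREBP) 0.65 with 0.34 (adjusted p = 0.24). The lowest member was Elovl1, an elongase of very long chains, with -0.06 (adjusted p = 0.93).

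Promoters of members were read from RefSeq (GRCm38.p6, 250 bases before to 50 after the start) to show the E-box, CACGTG, to which ChREBP and other helix-loop-helix factors bind. The search covered both strands, on which these letters read the same. Of 22 members with a promoter in that table, 3 (13.6%) hold the E-box, Elovl5, Mlxipl and Slc25a1, against 8.09% of the 27025 genes of the table and 11.2% of the 11483 of them measured in iWAT. The promoter of Slc25a1 is shown because its gene rose with every one of its listed transcripts. It lies at chr16:17928170-17928469 on the minus strand, and its E-box, in capitals, begins at position -239 counted from the start.
Slc25a1: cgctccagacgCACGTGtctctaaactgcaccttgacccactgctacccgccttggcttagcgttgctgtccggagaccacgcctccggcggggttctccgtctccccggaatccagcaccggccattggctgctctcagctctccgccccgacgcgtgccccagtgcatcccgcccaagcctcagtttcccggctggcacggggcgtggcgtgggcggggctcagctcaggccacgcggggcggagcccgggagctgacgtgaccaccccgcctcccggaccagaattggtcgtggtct

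Triglyceride assembly changed at some steps. Of 18 members 6 rose (Agpat1, Agpat2, Dgat1, Gpd1, Lpin1 and Mogat1) and 1 fell (Pck1), with a median of 0.64. Agpat2, which adds the second acyl chain, had 2.78 (approximate SE 0.33, adjusted p = 3.5e-14) and Dgat1, which adds the last one, 1.64 (approximate SE 0.34) in the authors' deposited table. Gpd1, which makes glycerol 3-phosphate from glycolysis, rose by 1.43, and Pck1, which makes it from pyruvate instead, had -1.09 (approximate SE 0.27, adjusted p = 0.0013). Of 16 lipolysis genes 3 rose (18.8%, against 4.76% of all genes) and 1 fell, with a median of -0.01. The lipases Pnpla2 (0.64, approximate SE 0.26, adjusted p = 0.088) and Lipe (-0.16, approximate SE 0.31) did not pass. Hcar1 and Hcar2, receptors for lactate and hydroxybutyrate that restrain lipolysis, rose by 1.20 and 1.26, and Adrb3, the beta3-adrenergic receptor that starts it, fell with -1.11 (approximate SE 0.33) in the authors' deposited table. Prkaca, a catalytic subunit of protein kinase A, rose by 0.97 (adjusted p = 0.030).

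Lipid uptake had 4 of 21 members higher and 2 lower, with a median of 0.27. Fabp5, a fatty acid binding protein, rose by 2.48 (approximate SE 0.30) and the transporter gene Slc27a1 by 1.21, while the caveolar gene Cavin2 had -1.15 and the large receptor gene Lrp1 fell too. Lpl, the lipoprotein lipase, had 0.04 with an approximate SE of 0.23, and Cd36 had -0.70 (approximate SE 0.25, adjusted p = 0.054) in the authors' deposited table. Among 15 lipid droplet genes, Cidea and Plin2 rose, by 4.05 and 1.47, and Plin4, a droplet coat gene of mature adipocytes, had -1.40 (approximate SE 0.28, adjusted p = 5.2e-05). Cidec, which fuses droplets in white adipocytes, had 0.14 with an approximate SE of 0.29.

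Many genes of glycolysis and of pyruvate entry into mitochondria rose. Of 19 glycolytic genes 13 rose and 0 fell, with a median of 1.38. Pkm, pyruvate kinase, rose by 1.87 (approximate SE 0.28), Eno1, an enolase, by 1.79, Gapdh by 1.73 (approximate SE 0.24, adjusted p = 4.4e-10) and Aldoa, an aldolase, by 1.52 in the authors' deposited table. Of 25 genes of pyruvate entry and the TCA cycle 21 rose and 0 fell, the largest share of higher members but one among the 44 lists (84.0%), with a median of 1.25. Mpc1, a subunit of the mitochondrial pyruvate carrier, rose by 2.32 (approximate SE 0.28, adjusted p = 3.7e-14). Pcx, pyruvate carboxylase, rose by 2.17 and Pdhb, a subunit of pyruvate dehydrogenase, by 1.91 in the authors' deposited table. Of the 6 genes that switch pyruvate dehydrogenase off and on, the kinase gene Pdk1 (1.73) and the phosphatase gene Pdp2 (1.11) rose, and the phosphatase gene Pdp1 fell with -1.35. The fasting-responsive kinase gene Pdk4 had -0.13 with an approximate SE of 0.40.

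Genes of the respiratory chain rose in each group of complexes. For complex I, 29 of 36 subunits rose and 0 fell (median 1.10), and for complexes III to V 28 of 33 rose and 0 fell (median 1.21). Ndufa10 (1.54), Ndufb9 (1.48) and Ndufa1 (1.32) were among the 4 with the smallest adjusted p of complex I. In the later complexes Atp5b, the catalytic subunit of ATP synthase, rose by 1.35 (approximate SE 0.21), Cyc1, cytochrome c1, by 1.49 and Uqcrfs1, the Rieske protein, by 1.49 in the authors' deposited table. Of the 13 genes of the mitochondrial genome 7 rose and 0 fell (median 0.78), and mt-Co3 had the highest value, 2.28 (approximate SE 0.29), beside mt-Co1 with 1.22 (approximate SE 0.18). Of the mitochondrial ribosomal protein genes 18 of 74 rose, with a median of 0.68. These subunits have short transcripts, and the median length was 827 bases in complex I, 720 in complexes III to V and 1251 among the mitochondrial ribosomal proteins. Short genes tended to be higher in TR in these libraries, as described below. With that relation to length removed, 14 of 36, 16 of 33, 2 of 13 mitochondrially encoded and 8 of 74 mitochondrial ribosomal genes rose. The cytosolic ribosomal proteins, of 755 bases in the median, had a median log2 fold change of 0.16, and the authors' edgeR test called 0 of 76, with 0 at an unadjusted p under 0.05.

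Mitochondrial fatty acid oxidation had 14 of 19 members higher and 0 lower, with a median of 1.26, and 12 higher after the relation to length was removed. Both subunits of the trifunctional protein rose, Hadhb by 1.74 (approximate SE 0.27) and Hadha by 1.55, as did Acadvl, which starts the oxidation of long chains, by 1.57 and the carnitine carrier gene Slc25a20 by 1.68 in the authors' deposited table. The gate of the pathway split by isoform: Cpt1b rose by 1.85 (approximate SE 0.44), and Cpt1a had -0.65 (approximate SE 0.34, adjusted p = 0.23). Cpt1b is also a muscle gene, and the muscle markers had a median of -2.84. Which cells its RNA came from was not tested. Of 22 peroxisomal genes 4 rose and 1, Abcd2, fell.

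Thermogenic and beige adipocyte genes had 11 of 23 listed members higher and 3 lower, with a median of 1.17. Cidea had 4.05 (approximate SE 0.42), Acot11, a thioesterase also called Them1, 3.26 (approximate SE 0.33) and Dio2, which activates thyroid hormone, 3.02 (approximate SE 0.59) in the authors' deposited table. Ucp1 had 2.88 with an approximate SE of 0.83 (adjusted p = 0.010), at a log2 mean CPM of 2.64. The 3 members that fell were Ebf2, a transcription factor of beige progenitors, with -1.49, Gatm, of creatine synthesis, with -1.48, and Fabp3 with -3.48. Fabp3 is also abundant in muscle, whose markers had a median of -2.84, and the source of its RNA was not tested.

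Of 23 genes of cholesterol synthesis 17 rose and 0 fell, with a median of 1.69, and 18 rose with the relation to length removed. Mvd, which completes the making of isopentenyl diphosphate, had 3.16 (approximate SE 0.35), and Dhcr7, of the last sterol steps, 2.40 in the authors' deposited table. Insig1, the feedback regulator that holds SREBP proteins in the endoplasmic reticulum, rose by 2.74 (approximate SE 0.31, adjusted p = 6.0e-16). One member stood below 0: Hmgcs1, the synthase that makes HMG-CoA, with -0.61 (approximate SE 0.34, adjusted p = 0.26). Srebf2, which encodes SREBP2, had 0.26 with an approximate SE of 0.27. Of 16 members with a promoter, 4 (25.0%) hold the E-box (Dhcr7, Hsd17b7, Insig1 and Sc5d) and 1 (6.25%), Hmgcs1, holds the sterol element TCACNCCAC on either strand, against 1.44% of all genes of the table. The promoters of Insig1, the member with the second highest fold, at chr5:28071162-28071461 on the plus strand, and of Hmgcs1, the member below 0, at chr13:119690101-119690400 on the plus strand, are shown with these letters in capitals. They begin at positions -101 and -137.
Insig1: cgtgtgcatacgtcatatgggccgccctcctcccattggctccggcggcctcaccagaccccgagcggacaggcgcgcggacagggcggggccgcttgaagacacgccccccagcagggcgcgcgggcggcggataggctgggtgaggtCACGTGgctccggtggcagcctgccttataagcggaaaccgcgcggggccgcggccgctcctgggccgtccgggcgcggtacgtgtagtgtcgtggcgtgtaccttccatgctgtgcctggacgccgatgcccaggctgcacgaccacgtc
Hmgcs1: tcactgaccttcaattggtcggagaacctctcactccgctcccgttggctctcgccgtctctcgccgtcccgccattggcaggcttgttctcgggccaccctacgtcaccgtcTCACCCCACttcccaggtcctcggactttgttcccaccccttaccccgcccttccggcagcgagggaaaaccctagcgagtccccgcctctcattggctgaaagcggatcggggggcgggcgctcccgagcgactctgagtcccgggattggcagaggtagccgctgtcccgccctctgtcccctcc

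Genes that adipocytes use to signal and to hold their identity changed in both directions. Among 15 adipokines 2 rose, Rbp4 (1.67) and Retn, and 3 fell, among which Sfrp5, a Wnt antagonist of expanding fat, had -2.61 (approximate SE 0.70) and Lep, leptin, -0.96 (approximate SE 0.32, adjusted p = 0.030) in the authors' deposited table. Hepatocyte markers had a median of 2.09, and the source of the Rbp4 RNA was not tested. Fgf21 had 1.49 with an approximate SE of 0.65 (adjusted p = 0.13) at a log2 mean CPM of 0.94. Of 21 transcription factors and cofactors of adipocytes 0 rose and 5 fell: Ebf1 (-1.58, approximate SE 0.30), Ebf2, Nrip1 (-1.19), Zfp423 (-1.18) and Ncor1. Their transcripts are long, with a median of 4487 bases, and 2 of the 5 falls, Ebf1 and Ebf2, remained with the relation to length removed. In insulin action 1 of 19 genes rose (5.26%, near the 4.76% of all genes) and 2 fell (10.5%, against 5.24%). The glucose transporter gene Slc2a4 (GLUT4) rose by 1.30 (approximate SE 0.33, adjusted p = 0.0029). Grb14, an inhibitor of the insulin receptor, and Irs2 fell with -1.21 and -1.06. The receptor gene Insr had -0.54 (approximate SE 0.31) and Irs1 -0.02 (approximate SE 0.41).

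Clock genes of the tissue moved in both directions, 5 of 19 higher and 3 lower. Nr1d1, the repressor REV-ERB alpha, had -2.01 (approximate SE 0.35, adjusted p = 9.3e-07), and Nr1d2 and Clock also fell. With the relation to length removed 1 of the 3 lower calls, Nr1d1, remained, and Nr1d2 (adjusted p = 0.082) and Clock (adjusted p = 0.46) did not pass. Bhlhe40, a repressor of the E-box, rose by 2.11 (approximate SE 0.38), Nfil3, a repressor of the D-box, by 1.84 (approximate SE 0.34) and Per2 by 1.11 in the authors' deposited table, and Cry1 rose too. Arntl (-0.39, approximate SE 0.33), Dbp (0.26, approximate SE 0.42) and Per1 (-0.09, approximate SE 0.31) did not pass. Because REV-ERB proteins act at the ROR element TAGGTCA, its letters were looked up on both strands: 2 of 16 clock promoters (12.5%) hold it, Arntl and Nfil3, against 2.97% of all genes, and 5 of 16 (31.2%) hold the E-box. Per3 alone holds the D-box TTATGTAA, which 1.11% of all genes hold. The Nfil3 promoter, at chr13:52980990-52981289 on the minus strand, carries the element as its reverse complement from position -12.
Nfil3: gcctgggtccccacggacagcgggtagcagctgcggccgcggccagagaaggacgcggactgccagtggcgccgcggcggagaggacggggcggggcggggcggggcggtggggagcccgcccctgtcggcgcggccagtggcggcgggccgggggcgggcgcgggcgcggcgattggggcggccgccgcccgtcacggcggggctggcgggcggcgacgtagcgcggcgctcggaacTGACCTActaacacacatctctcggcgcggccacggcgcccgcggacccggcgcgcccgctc

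Targets of glucocorticoids showed no common direction, with 2 of 14 higher and 3 lower. Glul, glutamine synthetase, rose by 1.62 and Hsd11b1, which regenerates the hormone, by 1.31, while Mt2, a metallothionein, and Zbtb16 had -2.31 and -2.11, and Klf9 fell too, in the authors' deposited table. The canonical target Fkbp5 had -0.18 with an approximate SE of 0.27. Among 24 antioxidant genes 8 rose and 0 fell (median 0.46), led by Gpx8 with 2.53 (approximate SE 0.28) and Gsta4 with 1.45, and 3 rose after the relation to length was removed. Of 37 proteasome genes 4 rose, and 0 after that removal. Of 18 endoplasmic reticulum chaperones 0 passed in the authors' edgeR test, 1 at an unadjusted p under 0.05, and of 21 proliferation genes 0 passed, 0 at an unadjusted p under 0.05. Psph, of serine synthesis, was the highest of 17 genes of the integrated stress response with 2.05 (approximate SE 0.31), and Asns was the other one that rose.

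**Figure D3:**
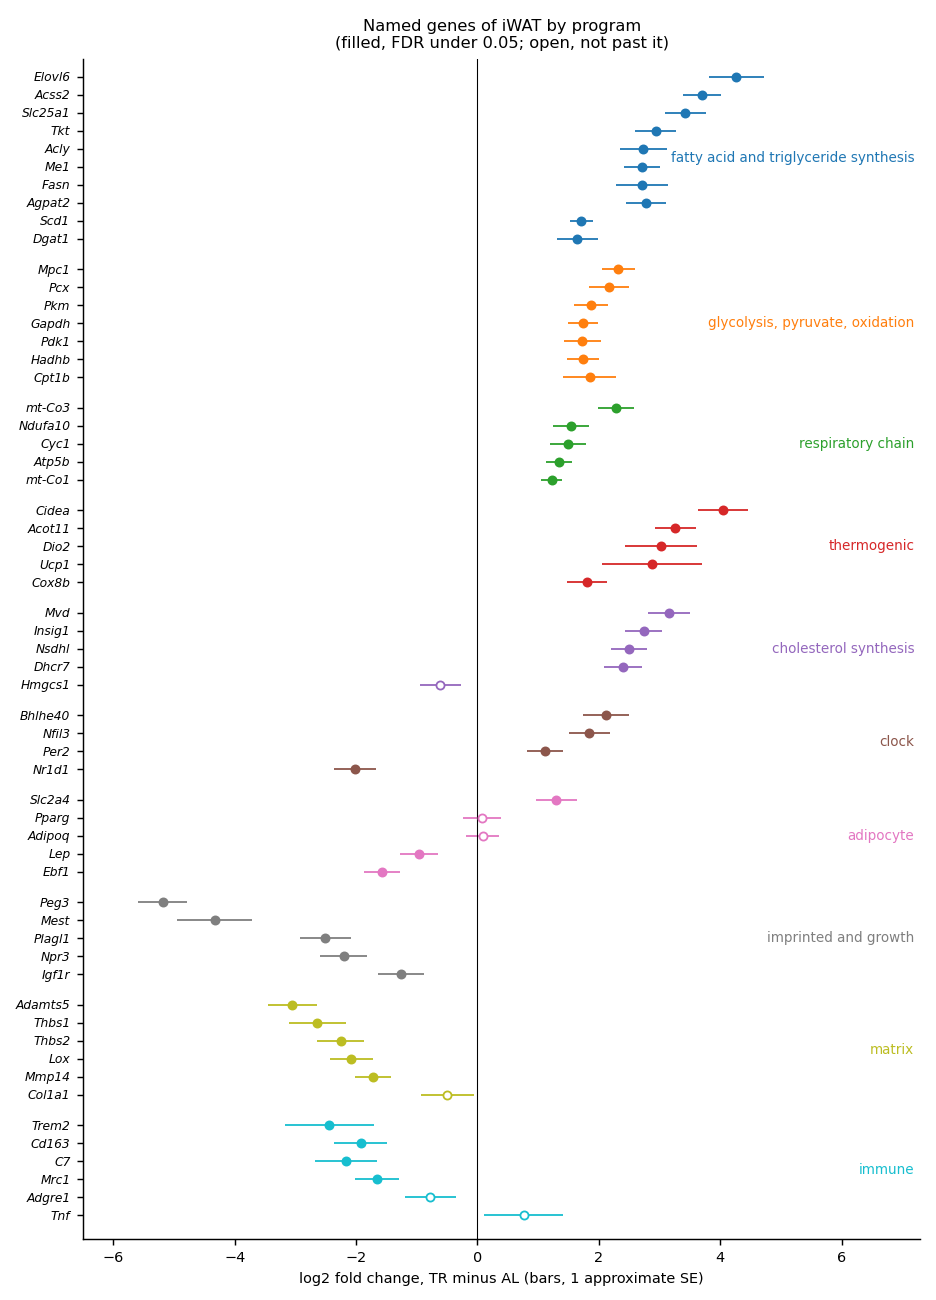
Log2 fold changes (TR minus AL) of named genes grouped by program, with bars of 1 approximate SE, filled where the adjusted p was under 0.05. Of the genes drawn, the synthetic, oxidative and thermogenic ones lie to the right of 0, apart from Hmgcs1 (-0.61). Imprinted, matrix and immune ones lie mostly to the left, and Hmgcs1, Pparg, Adipoq, Col1a1, Adgre1 and Tnf are open points. The genes were picked for drawing. Members going the other way, such as Ebf2, Gatm, Fabp3 and Cpt1a (below 0) and Adam12 and Ctsd (above 0), are not drawn.

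Of 15 imprinted genes and markers of adipose expansion 0 rose and 5 fell, and all 15 values were below 0 (median -0.93), where 5.24% of all genes fell. Those that fell were Peg3 (-5.19), Mest (-4.33), Plagl1 (-2.50, approximate SE 0.42), Npr3, the natriuretic peptide clearance receptor (-2.20, approximate SE 0.38), and Peg10 (-1.40). Mest on chromosome 6, from 30723547 to 30748465, was 0.0497 times as abundant in TR as in AL by the authors' deposited table. In the IGF axis the growth hormone receptor gene Ghr (-1.11), Igf1r (-1.26) and Igfbp3 (-1.19) fell among 13 genes, and Igf1 itself had -0.02 with an approximate SE of 0.33.

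Several matrix genes fell. Of 33 matrix glycoproteins and proteoglycans 0 rose and 8 fell (median -0.86), with Thbs1 at -2.64 (approximate SE 0.47), Ogn at -2.25, Thbs2 at -2.25 (approximate SE 0.38) and the elastic fibre gene Fbln5 at -1.71 in the authors' deposited table. All 8 falls among these genes were also counted once the relation to length was removed. Of 19 matrix proteases and inhibitors 7 fell and 1, Adam12, rose (median -0.99). Adamts5 had -3.05 (approximate SE 0.41, adjusted p = 2.4e-11), the membrane collagenase Mmp14 -1.73 (approximate SE 0.30) and Timp4, an inhibitor, -1.72 in the authors' deposited table. Lox, which crosslinks collagen and elastin, had -2.08 (approximate SE 0.35, adjusted p = 5.1e-07), and Loxl2 had -1.22. Of 21 collagen chains 4 fell (Col16a1, Col4a5, Col8a1 and Col5a2, between -1.70 and -1.21), the median was -0.64, and 20 of 21 values were below 0. The fibrillar chains Col1a1 (-0.50, approximate SE 0.44) and Col3a1 (-0.27, approximate SE 0.35) did not pass. The collagen transcripts are the longest of the lists, with a median of 5804 bases, and 0 of 20 with a length fell once the relation to length was removed.

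Signalling from the stroma had lower values as well. Of 28 genes of the TGF-beta and BMP families 11 fell and 0 rose (median -0.65), among them the receptor gene Bmpr1a (-1.16) and the ligand genes Tgfb3 (-1.34) and Bmp3 (-1.37) in the authors' deposited table. Their median length was 4662 bases, and 3 fell and 1 rose with the relation to length removed. Tgfb3 was among those 3, while Bmpr1a (adjusted p = 0.13) and Bmp3 (adjusted p = 0.10) did not pass after that removal. Of 21 markers of adipose progenitors 4 fell and 0 rose (median -0.50), Efemp1 (-1.66), Sema3c (-1.26), Pdgfra (-1.17, approximate SE 0.31) and Anxa3 (-1.01), and 2 of them, Efemp1 and Anxa3, fell after that removal. Among 20 angiogenic and hypoxia genes Egln3, a prolyl hydroxylase, rose by 1.82, and the growth factor genes Angpt1 (-1.34) and Fgf10 (-1.09) and the coreceptor gene Nrp1 (-0.90) fell. The higher share (5.0%) is near the 4.76% of all genes, and the lower share was 15.0%, against 5.24%.

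Immune and vascular cell markers were described as lists, since sorted cells were not measured. Of 20 macrophage markers 5 fell and 0 rose (median -0.74), and these were genes of resident tissue macrophages and of monocytes: Cd163 (-1.92, approximate SE 0.44), Mrc1 (-1.65, approximate SE 0.37), Lyve1 (-1.50), Ccr2 (-1.72) and Itgam (-1.41) in the authors' deposited table. With the relation to length removed 6 fell, without Itgam and with Cd68 and Fcgr3, which did not pass as deposited. The pan-macrophage gene Adgre1 had -0.78 (approximate SE 0.41, adjusted p = 0.25). Of 15 genes of lipid-associated macrophages 4 fell, Atp6v0d2 (-3.47), Mmp12 (-3.24), Trem2 (-2.44, approximate SE 0.74) and Gpnmb (-1.76), and 1 rose, the lysosomal protease gene Ctsd (1.58, approximate SE 0.30), which many cell types express. Among 18 complement genes C7 (-2.16), C3ar1 (-1.44) and C4b (-1.37) fell. Ccl9 (-1.42) was the one of 24 cytokines, chemokines and receptors that passed (4.17%) and Rsad2 (-1.18) the one of 26 interferon-induced genes (3.85%), shares near the 5.24% of all genes that fell. Tnf had 0.76 (approximate SE 0.66) and Ccl2 -0.86 (approximate SE 0.47).

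Lymphocyte markers carried wide errors. B cell markers had 14 of 14 values above 0 and a median of 0.97, but their median approximate SE was 1.07 and 0 passed in the authors' edgeR test, 0 at an unadjusted p under 0.05. T and NK cell markers had a median of 0.60 with a median approximate SE of 0.95, and 17 of 20 values were above 0. Il1rl1, a receptor of innate and regulatory lymphocytes, was the one of 20 that fell (-1.46). That share (5.0%) is near the 5.24% of all genes that fell. Inguinal fat contains a lymph node, and whether it entered a sample was not analysed here. In vessels, Tek (-1.17) and Erg (-1.07) fell among 18 endothelial markers, all 18 of which had values below 0 (median -0.36), while Pecam1 had -0.22 with an approximate SE of 0.28. Of 12 mural cell markers 4 fell, led by Acta2, smooth muscle actin, with -2.17 (approximate SE 0.42), and of 11 Schwann cell and nerve markers 2 fell, among them Scn7a (-1.05). With the relation to length removed 1 mural marker, Acta2, fell, and Scn7a did not pass (adjusted p = 0.22). Ms4a2, of mast cells, fell with -2.62 at a log2 mean CPM of -0.39. Of 7 epidermal markers 1, Sbsn, fell (-1.38), of 15 dendritic cell and MHC class II genes 0 passed in the authors' edgeR test (1 at an unadjusted p under 0.05), and of 5 erythroid genes 0 passed (1 at an unadjusted p under 0.05).

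Log2 fold changes were related to transcript length over the whole table. A length was had for 15107 genes as the mean GENCODE M21 length of a gene's listed transcripts, weighted by their mean CPM. Spearman's rho between log2 fold change and length, a description across genes that share libraries, was -0.33. Among the fifth of genes with the shortest transcripts (164 to 1549 bases) 287 rose and 51 fell with a median of 0.27, and in the longest (4550 bases or more) 50 rose and 344 fell with a median of -0.37. In CR minus TR, which uses the same TR libraries, rho was 0.38, and in CR minus AL, which uses the same AL libraries, it was -0.21. After the median of 20 bins of length was subtracted, a step added once this relation had been seen, 618 genes rose (4.09%) and 494 fell (3.27%) of the 15107. Fatty acid synthesis then had 19 of 26 members higher, the TCA cycle 20 of 25, glycolysis 12 of 19 and the matrix proteases 6 of 19 lower, against 21, 13 and 7 for these last lists as deposited. Other calls named above that ended with this removal were those of Agpat1, Mogat1, Prkaca, Lrp1, Abcd2, Retn, Lep, Irs2, Klf9, Asns, Peg10, Igf1r, Loxl2, Angpt1, Nrp1, C3ar1, Rsad2 and Il1rl1. RNA quality is not stated in the labels, and its part in the relation was not tested. Neat1, a long nuclear RNA, fell with -0.92 (approximate SE 0.23, adjusted p = 0.094 with the relation to length removed), and Malat1, another, had -0.55 (approximate SE 0.34).

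**Figure D4:**
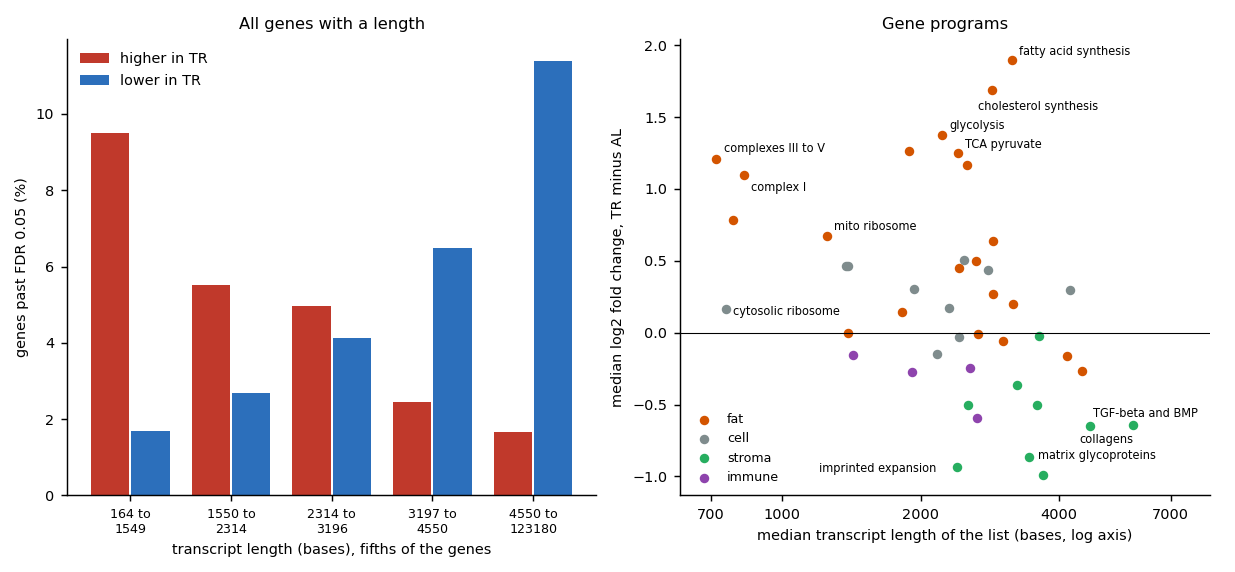
On the left, the share of genes past the adjusted p of 0.05 in 5 equal groups of genes by transcript length, higher in TR (red) and lower in TR (blue). On the right, the median log2 fold change (TR minus AL) of each gene list against its median transcript length on a log axis. Higher shares were 9.5% in the shortest group and 1.65% in the longest, lower shares 1.69% and 11.4%, while fatty acid and cholesterol synthesis stand high at middle lengths and the cytosolic ribosome near 0 at a short one.

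At the level of transcripts 1214 of 34175 changed (3.55%), 695 higher (2.03%) and 519 lower (1.52%). Of the 1535 genes that changed, 830 had at least 1 transcript past the threshold and 705 had none, and 178 further genes had a transcript past it without the gene. The direction of transcript and gene was the same for 1027 of 1029 transcripts. Acss2 had all 8 of its listed transcripts higher, Slc25a1 all 5, Aldoa 6 of 9, Acly 5 of 7, Nabp1, which encodes a single-stranded DNA binding protein, 5 of 6, Tkt 4 of 4 and Mpc1 4 of 5. Mest had all 4 lower, between -5.93 and -4.24 in the authors' deposited table. Of Slc25a1, both the coding transcript Slc25a1-201 (3.38, approximate SE 0.39) and the retained-intron transcript Slc25a1-202 (3.58, approximate SE 0.38) rose.

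Transcripts in both directions were called in 2 genes. Acacb, the acetyl-CoA carboxylase of the mitochondrial surface, rose as a gene by 2.33 (approximate SE 0.39), as did its coding transcript Acacb-202 (2.12) and the retained-intron transcript Acacb-204 (2.83). Its other long coding transcript, Acacb-201, had -11.51 with an approximate SE of 2.32 (adjusted p = 1.4e-04) in the authors' deposited table. Acacb-201 and Acacb-202 have 8482 and 8788 bases, and the division of reads between such similar transcripts is uncertain. Usp2, a deubiquitinase linked to the clock, had Usp2-206 higher (3.46, approximate SE 0.88) and Usp2-203 lower (-7.62, approximate SE 2.31). The log2 mean CPM of Acacb-201 was 2.77 and that of Usp2-203 was -0.94. Nnat, an imprinted gene named after its values were seen, did not pass as a gene (-0.97, approximate SE 0.44, adjusted p = 0.16). Its 2 retained-intron transcripts had -6.98 (Nnat-203, approximate SE 0.84) and -6.18 (Nnat-204, approximate SE 0.64), against -0.87 (approximate SE 0.46) for the main coding transcript Nnat-202. Of all retained-intron transcripts 53 rose and 33 fell among 5623, and of protein-coding ones 562 and 437 among 23257.

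**Figure D5:**
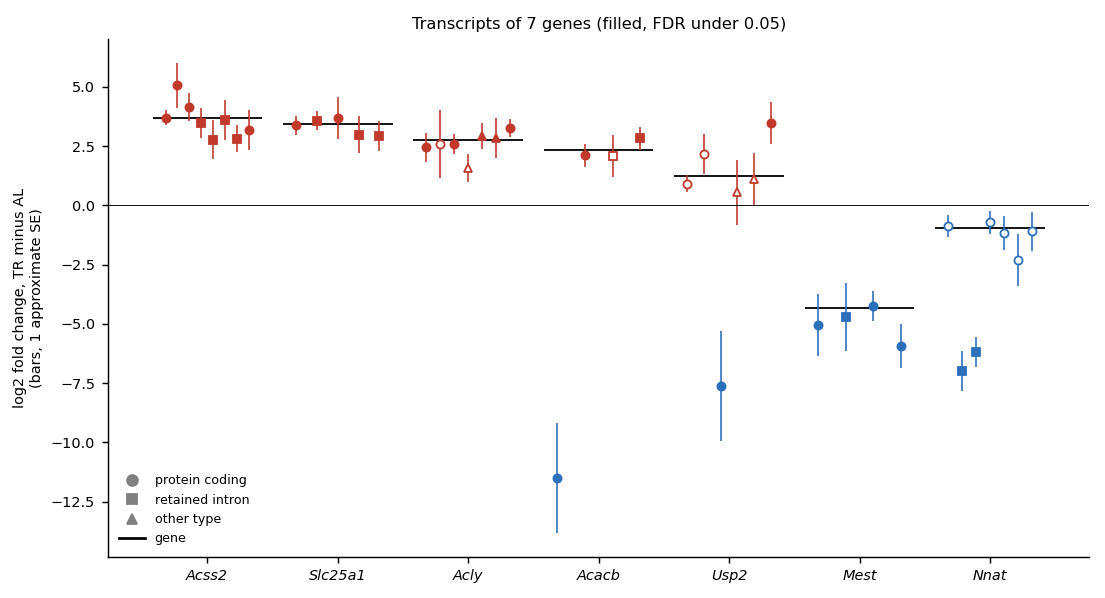
Log2 fold changes (TR minus AL) of every listed transcript of 7 genes, with bars of 1 approximate SE, filled where the adjusted p was under 0.05, and the gene's own value as a black line. All transcripts of Acss2 (2.77 to 5.06) and Slc25a1 (2.93 to 3.68) lie above 0 and are filled, while Acacb-201 (-11.51), Usp2-203 (-7.62) and 2 retained-intron transcripts of Nnat lie far from it.

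Calorie restriction was set against TR in CR minus TR. There, where a positive value means higher in CR, 135 of 14699 genes changed (0.918%), 9 higher and 126 lower in CR. With the liver-enriched set taken anew from the mean levels of this comparison, 129 of these were hepatocyte, muscle or liver-enriched genes and 6 were not. By the sets as defined above, from the levels of TR minus AL, the sets held 118, and 16 lay outside them, with 1 gene not listed in TR minus AL. Of the markers, 22 of 25 hepatocyte ones were lower in CR (median -5.95) and 5 of 35 muscle ones higher (median 4.04). The 6 outside the sets taken anew were Fabp3 (4.26), Cavin4 (3.94) and Nexn (3.07), all known from muscle, Mettl7b (-3.17), Mmd2 (-1.88) and the predicted gene Gm45837 (10.41). Of the 1441 genes outside the sets as first defined that changed in TR minus AL and are listed in CR minus TR, 3 passed there, and 103 had an unadjusted p under 0.05. Over all 14699 genes of CR minus TR, 135 passed and 532 had an unadjusted p under 0.05 in the authors' edgeR test. These comparisons share the TR libraries. No member of the fatty acid synthesis list passed in the authors' edgeR test of CR minus TR (1 at an unadjusted p under 0.05, median -0.25), and none of cholesterol synthesis did (2 at an unadjusted p under 0.05, median -0.25). Outside the marker lists of hepatocytes and muscle, the members that passed in CR minus TR were Arg1 (-5.50), Cideb and Fabp3, of which Arg1 and Cideb are abundant in hepatocytes.

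The CR minus AL comparison shares the AL libraries with TR minus AL, and its values are given beside them without a test. Hepatocyte markers had medians of 2.09 in TR minus AL and -3.83 in CR minus AL, and muscle markers -2.84 and 1.18. Fatty acid synthesis had 19 of 26 members higher in TR and 18 of 26 in CR, with medians of 1.90 and 1.74, the TCA cycle list 21 and 22 of 25, and fatty acid oxidation 14 and 15 of 19. Cholesterol synthesis had 17 of 23 and 15 of 22 higher. Complex I had 29 and 25 of 36 higher (medians 1.10 and 0.88) and mitochondrial ribosomal proteins 18 and 5 of 74 (medians 0.68 and 0.48). The mitochondrial genome had 7 and 2 of 13 higher, but medians of 0.78 in TR and 0.86 in CR. Its counts therefore do not show a smaller difference in CR. Of the stromal lists, matrix glycoproteins had 8 and 7 of 33 lower, matrix proteases 7 and 7 of 19 and the imprinted list 5 and 6 of 15.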

How the data were processed

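Bulk RNA of iWAT was sequenced from 6 TR, 6 AL and 6 CR mice, and the grouping follows the labels. Per the labels' protocols, Trizol RNA, 1 ug a library, went into an Illumina TruSeq kit, and no label states whether it keeps strand. Per the submitters' processing notes, bcl2fastq 2.20, STAR 2.5.3a, RSEM and the build GRCm38.p5 were used. The deposited log2 columns are the authors' log2 fold change and log2 mean CPM, per the file headers. The deposited score column is the authors' likelihood-ratio statistic of an edgeR generalized linear model, per the file headers. Each deposited p-value comes unadjusted and as an FDR, per the file headers. The version, normalization and filter behind that model are not stated in any source used here. The tables hold no values per library, so the depth is unknown and no model was refitted.

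Computed here with Python 3.11.15, pandas 2.3.3 and scipy 1.17.1 were the approximate SE, counts and medians of 60 gene lists, the liver-enriched set (a gap of 5 log2 units, with 3 as an alternative), motif matches and a correction for transcript length in 20 bins (added after the data were seen), tested on simulated data. The deposited p was checked against the chi-square tail of the statistic (1 degree of freedom), with differences of at most 3.8e-10, and the FDR against the Benjamini-Hochberg adjustment, with differences of at most 0.0023.

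The members and lists were chosen with earlier results of these data known. Named genes are the 10 with the highest and the 10 with the lowest fold among those under the FDR of 0.05, at or above a log2 mean CPM of 2, outside the liver and muscle sets and not predicted genes, up to 4 members of each list by adjusted p, 35 genes named whatever their values, up to 6 genes in each direction of CR minus TR, and up to 8 genes with the most changed transcripts or with transcripts changed in both directions. Others (among them Hmgcs1, Nnat, Neat1, Malat1, Elovl1, Idh2, Cpt1a, Srebf2, Plin1, Cidec, Igf1 and the fifth and later members of a list) were named after their values were seen. Copies with near-identical sequence, such as Ighg2c, Acta1 and Acta2, mitochondrial genes with nuclear copies, and genes overlapping on the other strand are uncertain. No chance test of lists was made. A few genes picked by this rule are left out of the text.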

Additional observations from a re-analysis of the deposited data

How the results depend on the processing

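The count of genes that changed in TR minus AL was within 1.5 times its value with genes under a log2 mean CPM of 1 left out (1471), without the hepatocyte, muscle and liver-enriched sets (1530), with a log2 fold change of at least 1 in size (1224) and with the relation to length removed (1112, added after the data were seen). The stricter Benjamini-Yekutieli adjustment left 619 genes, 359 higher and 260 lower, and outside the liver and muscle sets 613, 357 higher and 256 lower. It left 456 transcripts, 303 higher and 153 lower, and in CR minus TR 1 gene, higher in CR, with 0 lower (532 genes had an unadjusted p under 0.05 in the authors' edgeR test). With the relation to length removed, 494 genes fell in TR, 477 of them outside the liver and muscle sets, against 804 and 787, and 618 rose, against 731. Of 254 named genes, 82 were no longer past the threshold under Benjamini-Yekutieli adjustment and 56 with the relation to length removed. A gene past the threshold as deposited could not change sign in these runs. They leave the log2 fold changes alone or shift them by less than the smallest size among called genes, 0.585. The 254 include genes that did not pass as deposited, such as Adipoq and Pparg, which could not be lost. The share lost among genes that passed is therefore larger than these counts of 254 give. No paired analysis was possible because TR and AL mice share no animal number and the tables hold no values per library. For the same reason leaving out mice, another normalization and another count model were not run, and whether 1 mouse decides a value was not analysed here.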
